A study of Mus musculus with 25 samples.

Results

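A set of 9 genes of fatty acid desaturation, elongation and activation, Fads1, Fads2, Scd2, Elovl1, Elovl2, Elovl5, Acsl3, Acsl4 and Acsl5, was followed in mouse hepatocytes while mice were fed a diet for NASH (non-alcoholic steatohepatitis, a fatty liver disease with inflammation). They were taken by symbol from the count table, which held all 9 of them among 37085 symbols, and all 9 were among the 11869 genes with enough counts to be tested. The hepatocytes came from C57BL/6 mice, were freed by collagenase perfusion of the liver, pelleted at low speed and sorted by flow cytometry, and their polyadenylated RNA was sequenced from the 3' end. There were 5 libraries from mice on normal diet and 4, 3, 4, 3, 3 and 3 libraries after 1, 2, 3, 4, 5 and 6 weeks of the NASH diet. The sources used here give neither the composition of the diet nor the sorting gate, age or sex. Nothing in the labels ties each library to its own mouse. The p-values therefore measure how far libraries differ, which may be technical. Because each library is bulk RNA, fewer cells of a type and less RNA per cell cannot be told apart.

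Long-chain polyunsaturated fatty acids are made from dietary linoleic and alpha-linolenic acid by alternating desaturation and elongation in the endoplasmic reticulum, and the liver is a main site of this synthesis. Fads2 and Fads1 encode the delta-6 and delta-5 desaturases, Elovl5 and Elovl2 the elongases that lengthen their products, and the long-chain acyl-CoA synthetases, encoded by the Acsl genes, activate fatty acids to acyl-CoA for elongation, esterification or oxidation. Of the set, Scd2, a stearoyl-CoA desaturase, makes monounsaturated fatty acids, and Elovl1 acts chiefly on saturated and monounsaturated very long chains, so the set is wider than the polyunsaturated pathway in the strict sense.

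Libraries held 5281140 to 10015800 counts. Levels are given as CPM, counts relative to library size scaled for composition, and differences as log2 fold changes with their standard error (SE) from 1 edgeR model of all libraries. Calls were made where the p adjusted over all tested genes (Benjamini-Hochberg) was under 0.05. Every comparison of a week with normal diet uses the same 5 normal-diet libraries. All 10 hepatocyte markers were detected in every group. Markers of other liver cells were also present and rose with time on the diet: 12 Kupffer cell markers summed to 454 ± 234 CPM in the normal-diet group (SD, n = 5), to 1051 ± 349 CPM after 4 weeks, to 2033 ± 88.7 after 5 and to 1802 ± 146 after 6 (n = 3 each). The 12 endothelial markers summed to 371 ± 224 CPM on normal diet and 1669.8 ± 113 at week 5, the 13 monocyte and macrophage markers to 129 ± 75.1 and 579 ± 86.6 CPM, and the 12 stellate cell markers to 123 ± 29.7 and 792 ± 274 CPM. The hepatocyte markers summed to 109417 ± 3504 CPM on normal diet and to 80563 ± 4274 CPM at week 5. Of these 10 markers, 9 were called lower in at least 1 comparison and 0 were called higher. Each of the Kupffer, monocyte, endothelial and stellate markers was detected on normal diet too and was called higher in at least 1 comparison. Of the defining markers of other cells, Krt19, Krt7, Epcam and Cftr (cholangiocytes) and Adipoq, Plin1, Lep and Retn (adipocytes) were too low to be tested. The 3 adipocyte-list markers that were tested, Fabp4, Cidec and Cfd, were called higher at week 5, where the sum of that list was 78.9 ± 12.9 CPM against 8.99 ± 5.41 on normal diet. Of the 4 tested markers of the cholangiocyte list, 2 were called higher at week 5 (Spp1 and Bicc1), and 1 other was called lower in at least 1 comparison. The sum of the cholangiocyte list did not rise: at week 5 it was 0.918-fold of normal diet. Its libraries overlapped, at 27.7 to 54.5 CPM against 42.3 to 60.6 on normal diet. Sox9, of the same list, had a mean of 25.9 ± 9.48 CPM at week 5 against 41.1 ± 7.93 on normal diet. A mean log2 level of the Kupffer, endothelial and stellate markers, called the marker score, was 3.56 on normal diet and 6.10 at week 5, and results are also given from a fit with this score as a term. In that fit 56 of all tested genes were called in the averaged comparison, against 2371 without the score, and the score and the weeks move together.

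Averaged over the diet weeks, 5 of the 9 genes were lower than on normal diet and 0 were called higher: Fads1, Elovl1, Acsl3, Acsl4 and Acsl5, 1 desaturase, 1 elongase and the 3 synthetases. Over all tested genes 20.0% were called in this comparison, 8.87% as lower. The median log2 fold change was -0.47 over the 9 genes and -0.02 over all tested genes. Fads2, Elovl2 and Elovl5 were called in no comparison, and Scd2 was higher at weeks 5 and 6 only in these tests.

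The 250 bases before the annotated start were examined for the genes with an entry in the RefSeq promoter table (GRCm38.p6, an older build than that of the counts), which were 7 of the 9; Fads1 and Scd2 had none, and Elovl1 and Elovl2 each had 2 starts. They are shown for the 4 such genes that fell in the averaged comparison and for 2 that did not pass it, with matches on either strand in capitals to these motifs: the sterol regulatory element TCACCCCA, the CCAAT box, the GC box GGGCGG, the E-box CACGTG and DR1 and DR4, the direct repeats of AGGTCA with 1 and 4 bases between them. Elovl1 (chr4:118427843-118428092, plus strand, the first of its starts), Acsl3 (chr1:78657575-78657824, plus strand), Acsl4 (chrX:142390536-142390785, minus strand), Acsl5 (chr19:55253119-55253368, plus strand), Fads2 (chr19:10101504-10101753, minus strand) and Elovl5 (chr9:77917115-77917364, plus strand) read 5′ to 3′:
Elovl1: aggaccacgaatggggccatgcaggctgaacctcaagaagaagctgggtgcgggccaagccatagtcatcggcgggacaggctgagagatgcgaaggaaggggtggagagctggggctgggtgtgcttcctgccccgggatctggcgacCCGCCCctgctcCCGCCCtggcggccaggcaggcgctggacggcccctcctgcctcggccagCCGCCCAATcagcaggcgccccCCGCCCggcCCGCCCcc
Acsl3: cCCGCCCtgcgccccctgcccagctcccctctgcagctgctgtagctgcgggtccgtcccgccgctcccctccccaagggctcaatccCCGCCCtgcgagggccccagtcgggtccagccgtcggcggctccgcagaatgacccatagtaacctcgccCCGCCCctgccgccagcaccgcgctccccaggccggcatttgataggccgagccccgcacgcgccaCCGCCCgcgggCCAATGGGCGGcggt
Acsl4: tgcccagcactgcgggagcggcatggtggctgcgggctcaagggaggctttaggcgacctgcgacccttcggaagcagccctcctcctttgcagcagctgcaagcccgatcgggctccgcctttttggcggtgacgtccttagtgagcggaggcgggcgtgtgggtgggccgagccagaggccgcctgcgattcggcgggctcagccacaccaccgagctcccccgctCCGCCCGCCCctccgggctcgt
Acsl5: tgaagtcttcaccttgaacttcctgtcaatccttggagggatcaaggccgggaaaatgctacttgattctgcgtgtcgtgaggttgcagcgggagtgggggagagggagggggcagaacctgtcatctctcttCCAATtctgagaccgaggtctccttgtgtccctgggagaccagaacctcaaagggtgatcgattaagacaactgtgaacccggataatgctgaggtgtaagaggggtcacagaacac
Fads2: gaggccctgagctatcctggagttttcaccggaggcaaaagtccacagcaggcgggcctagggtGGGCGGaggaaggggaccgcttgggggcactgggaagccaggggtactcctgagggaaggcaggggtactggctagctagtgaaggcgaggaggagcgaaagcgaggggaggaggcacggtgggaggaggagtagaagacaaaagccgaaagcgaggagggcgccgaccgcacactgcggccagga
Elovl5: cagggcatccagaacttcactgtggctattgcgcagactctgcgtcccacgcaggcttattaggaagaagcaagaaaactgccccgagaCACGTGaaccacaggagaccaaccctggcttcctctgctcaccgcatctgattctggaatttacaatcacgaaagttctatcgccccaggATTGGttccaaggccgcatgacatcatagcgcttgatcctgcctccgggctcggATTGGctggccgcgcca
The GC box was found 5 times in the printed window of Elovl1 and in Acsl3, 2 times in Acsl4 and 1 time in Fads2, and in 32.7% of all 32851 windows of this length. The CCAAT box was found in Elovl1, Acsl3 and Acsl5 and 2 times in Elovl5, and in 33.8% of all windows. The window of the second Elovl1 start, not printed, held 2 GC boxes and 0 CCAAT boxes. Elovl2, not called and also not printed, held 5 GC boxes before its first start and 0 before its second. It held 0 CCAAT boxes before either start. In the printed window of Elovl1 the CCAAT box shares bases with a GC box, and in Acsl4 both GC boxes overlap. The E-box was found in Elovl5 alone among these 6, and in 6.02% of windows. The sterol regulatory element (1.34% of windows) and both direct repeats (0.0335% and 0.0152%) were found in 0 of the windows of the 7 genes. A match is a string of letters and says nothing about binding, and none of the 6 motifs was found in all 4 genes that fell.

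Week by week, 1 of the 9 genes was called at week 1 (Acsl3, lower), where 1.20% of all tested genes were called, 0.977% as lower. At week 2, 2 were called (Elovl1 and Acsl5, both lower), against 0.885% of all genes, 0.657% as lower. At week 3, 0 were called at a background of 0.851%; edgeR gave 3 genes an unadjusted p under 0.05, DESeq2 called 1 and limma voom 0. At week 4, 2 were lower (Elovl1 and Acsl4; 8.30% of all genes called, 2.86% as lower). At week 5, 4 were lower (Elovl1, Acsl3, Acsl4 and Acsl5) and Scd2 was higher, against 35.4% of all genes called, 16.3% as lower and 19.1% as higher. At week 6 Acsl4 and Acsl5 were lower and Scd2 higher, against 26.8% of all genes, 10.5% as lower and 16.3% as higher. The share of the 9 genes called at week 6 was thus close to that of all genes. Without composition scaling, using library size only, the calls were 0 at weeks 1 and 2, 1 higher and 1 lower at each of weeks 5 and 6, and 1 higher and 4 lower in the averaged comparison. That scaling moved the median of all tested genes by 0.12 at week 1, 0.33 at week 5 and 0.19 in the averaged comparison on the log2 scale.

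**Figure D1:**
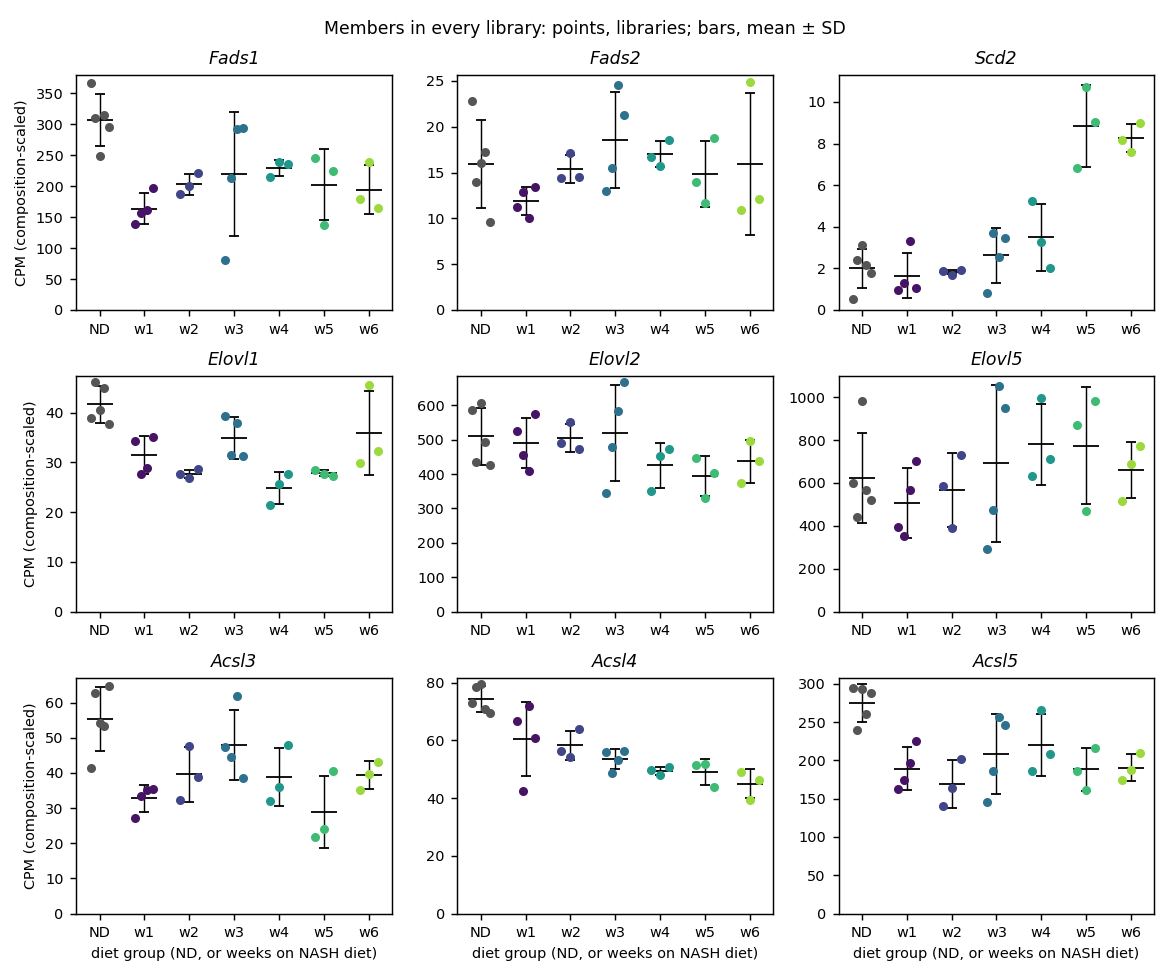
Composition-scaled CPM (vertical axis, from 0) of each of the 9 genes in all 25 libraries, by diet group (horizontal axis: ND, normal diet; w1 to w6, weeks on the NASH diet). Points are libraries and bars are mean ± SD. Acsl4 steps down from a mean of 74.3 CPM (ND) to 44.9 CPM (w6), while Scd2 stays low to week 3 and is highest at weeks 5 and 6.

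Fads1, the delta-5 desaturase that makes arachidonic and eicosapentaenoic acid, was lower in the diet libraries as a whole. On normal diet its level was 366, 309.9, 249, 314 and 295 CPM in the 5 libraries. It was 138, 157, 162 and 198 CPM at week 1 and 188, 200.4 and 220.5 at week 2. The highest of these 7 diet libraries lay below the lowest normal-diet library. At week 3 the libraries had 81.2, 214, 292 and 293 CPM, and at week 4 214, 239 and 235. At weeks 5 and 6 they had 246, 137 and 225, then 179, 239 and 165 CPM. In all, 18 of the 20 diet libraries were below the lowest normal-diet library, and the groups did not overlap at weeks 1, 2, 4, 5 and 6. The share of all tested genes whose diet libraries all lay below the normal-diet ones was 2.85% at week 1, 3.76% at week 2, 6.65% at week 4, 18.2% at week 5 and 10.6% at week 6. Averaged over the weeks, Fads1 fell with a log2 fold change of -0.61 ± 0.18 (SE; adjusted p = 0.0176, 20 of 20 libraries below the normal-diet mean). No single week passed edgeR's test in the model of all groups. DESeq2 called week 1 (-0.91, adjusted p = 0.0141), and an edgeR fit of only the groups compared called weeks 1, 5 and 6. The lowest adjusted p was 0.0775 at week 6, with -0.66 ± 0.27, and the largest difference was -0.91 ± 0.25 at week 1 (adjusted p = 0.0859). Without week 3 library 1, which stood at 81.2 CPM, weeks 1, 5 and 6 were called (week 1 -0.91 ± 0.16, adjusted p = 0.00136). Without normal-diet library 1 the averaged difference was -0.54 ± 0.19 and was not called (adjusted p = 0.0681), and neither was it with library size only (-0.43 ± 0.18, adjusted p = 0.0911), without normal-diet libraries 1 and 5 (-0.54 ± 0.22, adjusted p = 0.155) or with the marker score (-0.52 ± 0.31, adjusted p = 0.606).

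Fads2, the delta-6 desaturase that carries out the first step, lies beside Fads1 on chromosome 19 and did not pass any test. It was 22.8, 13.97, 16.04, 17.2 and 9.64 CPM on normal diet and 11.2, 12.9, 10.0 and 13.4 CPM at week 1. Over all 20 diet libraries it ran from 10.0 to 24.9 CPM with a median of 14.5, against 9.64 to 22.8 on normal diet, so the groups overlapped throughout. The averaged log2 fold change was -0.05 ± 0.18 (adjusted p = 0.87), and the largest difference, at week 1, was -0.43 ± 0.24 (adjusted p = 0.568). Its counts were 44 to 173 per library. Whether Fads1 and Fads2 differ in their response was not tested. Fads3 and Fads6, other members of the desaturase family, had averaged log2 fold changes of -0.27 ± 0.33 (not called) and -0.34 ± 0.09 (lower, adjusted p = 0.0102).

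Scd2 rose late and was the only gene of the 9 called higher in any of the 9 comparisons of the edgeR model with composition scaling. On normal diet it was low, at 0.544, 2.41, 3.11, 2.15 and 1.75 CPM. At week 1 it was 0.958, 1.30, 3.29 and 1.07 CPM, at week 2 1.86, 1.70 and 1.92 and at week 3 0.800, 3.69, 2.54 and 3.48. Those libraries lay in or just beyond the normal-diet range. At week 4 the level was 5.23, 3.25 and 2.02 CPM, at week 5 6.81, 10.7 and 9.03 and at week 6 8.18, 7.62 and 8.97. All 6 libraries of weeks 5 and 6 were above every other library, at weeks where 20.1% and 16.1% of all tested genes had diet libraries all above the normal-diet ones. The log2 fold change was 2.11 ± 0.39 at week 5 (4.33-fold, adjusted p = 0.000179) and 2.02 ± 0.39 at week 6 (4.05-fold, adjusted p = 0.000502). Over the diet weeks the slope was 0.53 ± 0.07 log2 per week (adjusted p = 1.27e-05), where 33.9% of all tested genes had a slope called, 18.9% upward and 14.9% downward, and the averaged difference, 0.81 ± 0.32, was not called by edgeR (adjusted p = 0.0718). DESeq2 called it (0.84, adjusted p = 0.0365), as did edgeR with library size only (1.01 ± 0.33, adjusted p = 0.0295). Its counts were only 3 to 90 per library. The order of the group means was week 5, week 6, week 4, week 3, normal diet, week 2 and week 1. Weeks 5 and 6 overlapped each other but not week 4. Among the 5 lower groups, each overlapped its neighbours in this order.

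Markers of other liver cells were higher at the weeks in which Scd2 rose, and the means of their sums lay above normal diet before that. Relative to normal diet, the mean of Scd2 was 0.83-fold at week 1 and 0.914-fold at week 2. At these weeks the Kupffer marker sum was 1.53-fold and 1.86-fold, the endothelial sum 1.17-fold and 1.32-fold and the stellate sum 1.72-fold and 2.72-fold. The Kupffer and endothelial sums of single libraries overlapped normal diet at both weeks. The stellate sums overlapped it at week 1 but not at week 2. At weeks 5 and 6 the mean of Scd2 was 4.43-fold and 4.14-fold, the Kupffer marker sum 4.48-fold and 3.97-fold, the endothelial sum 4.50-fold and 3.76-fold and the stellate sum 6.43-fold and 5.24-fold. With the marker score as a term the log2 fold change of Scd2 was 0.15 ± 0.72 at week 5 and 0.28 ± 0.63 at week 6, neither called (adjusted p = 0.979 and 0.926). Whether the Scd2 counts come from hepatocytes was not tested. Scd2 lies in a cluster with Scd1, Scd3 and Scd4 on chromosome 19, and its count is uncertain to the extent that reads of close paralogs could be shared. Scd1, the abundant hepatocyte form of the enzyme, had a log2 fold change of -0.01 ± 0.37 at week 5 and 0.32 ± 0.37 at week 6 and was not called in any comparison.

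**Figure D2:**
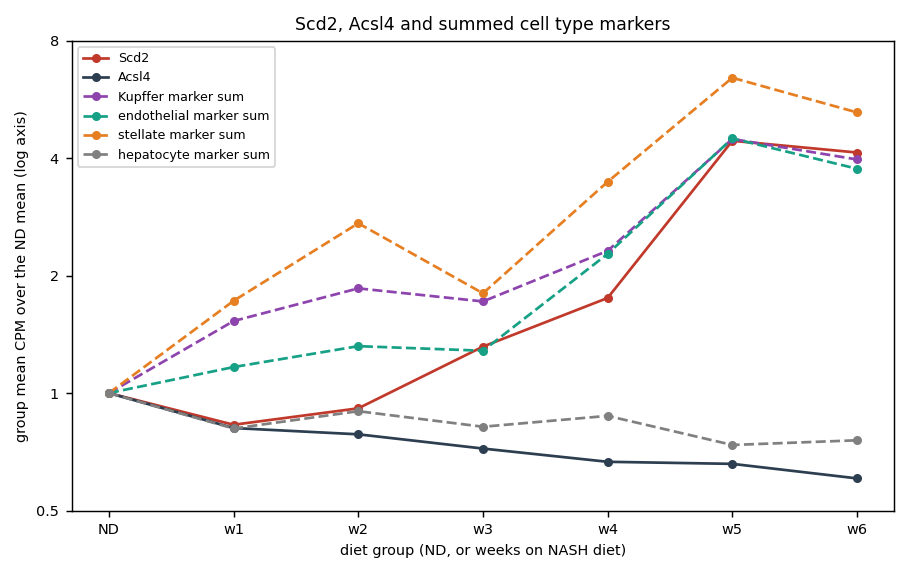
Group mean CPM over the normal-diet mean (vertical log axis) by diet group (horizontal axis) for Scd2 and Acsl4 (solid lines) and for the summed markers of 4 cell types (dashed lines). Scd2 reaches 4.43-fold at week 5 beside the Kupffer and endothelial sums (4.48-fold and 4.50-fold), and Acsl4 lies below the hepatocyte sum from week 2 on.

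Of the elongases, Elovl1, which makes the very long saturated and monounsaturated chains found in sphingolipids, was lower and the other 2 were not called. Elovl1 was 39.0, 46.0, 40.5, 45.0 and 37.7 CPM on normal diet and 34.3, 27.8, 28.8 and 35.1 CPM at week 1. At week 2 it was 27.6, 26.9 and 28.6 CPM, at week 3 39.2, 31.4, 37.9 and 31.3 and at week 4 21.3, 25.7 and 27.6. The libraries of weeks 1, 2 and 4 all lay below the lowest normal-diet library, and 2 of the 4 week 3 libraries lay above it. Of all tested genes 2.85%, 3.76% and 6.65% were lower without overlap at weeks 1, 2 and 4. At week 5 the libraries had 28.4, 27.7 and 27.2 CPM and at week 6 29.9, 45.5 and 32.3. The week 5 libraries all lay below the normal-diet range, as did those of 18.2% of all tested genes. Library 2 of week 6 reached the normal-diet range and the other 2 did not. Elovl1 fell at week 2 (-0.59 ± 0.14, adjusted p = 0.029), week 4 (-0.74 ± 0.14, adjusted p = 0.00178) and week 5 (-0.59 ± 0.13, adjusted p = 0.00138), and in the averaged comparison (-0.47 ± 0.09, adjusted p = 0.000983, 19 of 20 libraries below the normal-diet mean). It differed among the diet weeks (adjusted p = 0.0335), in a test that called 23.1% of all tested genes. Its slope was not called (0.01 ± 0.02 log2 per week, adjusted p = 0.711). The test among weeks lost its call without any 1 of 7 libraries of weeks 3, 4 and 5, and the week 2 call without normal-diet library 2 or 4 or any 1 of the week 2 libraries. The week 2 call was also lost with library size only (-0.50 ± 0.13), no filter, only the groups compared, the replicate block and the marker score, and the test among weeks with the last 4 of these. With library size only the week 5 value was -0.25 ± 0.13, not called (adjusted p = 0.129), and the week 6 value turned to 0.08 ± 0.13. Under that setting the Elovl1 slope was called upward (0.06 ± 0.02 log2 per week, adjusted p = 0.0446). With the marker score the averaged value was -0.45 ± 0.15 (adjusted p = 0.258).

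Elovl2, which lengthens the precursors of docosahexaenoic acid, was 586, 436, 607, 494 and 425 CPM on normal diet and 446, 331 and 404 CPM at week 5, the week with the lowest mean. The groups overlapped in every week. Its averaged log2 fold change was -0.15 ± 0.12 (adjusted p = 0.41) and its largest weekly difference -0.37 ± 0.18 at week 5 (adjusted p = 0.103). Elovl5, which lengthens the products of Fads2, was 600.1, 441, 981, 568 and 520.4 CPM on normal diet. Its diet libraries ran from 291 to 1053 CPM with a median of 662, so that they reached both below and above the normal-diet range. The averaged log2 fold change of Elovl5 was 0.08 ± 0.25 (adjusted p = 0.875), with weekly values from -0.30 ± 0.34 at week 1 to 0.33 ± 0.36 at week 4. Its coefficient of variation within groups had a median of 32.0%, against 8.64% for Acsl4.

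**Figure D3:**
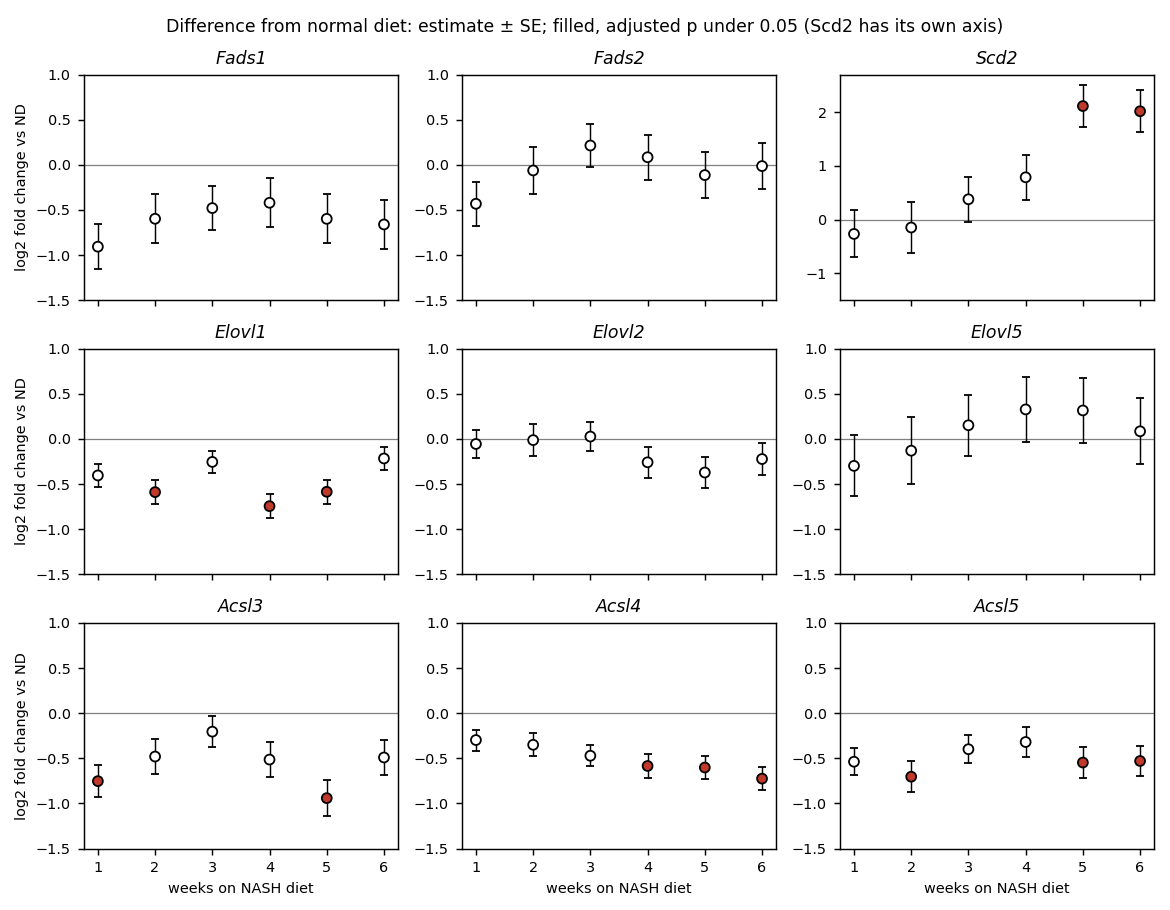
Log2 fold change against normal diet (vertical axis, ± SE) by weeks on the NASH diet (horizontal axis) for each gene; filled points have an adjusted p under 0.05, and Scd2 has its own vertical range. Acsl4 is filled at weeks 4 to 6, Elovl1 at weeks 2, 4 and 5, and Fads1 lies below 0 in all 6 weeks with no filled point.

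Among the synthetases, Acsl4, which prefers arachidonic acid and feeds polyunsaturated chains into membrane phospholipids, had the smallest adjusted p of the 9 genes in the averaged comparison. It was 72.9, 78.6, 79.6, 70.9 and 69.5 CPM on normal diet and 66.6, 42.5, 71.9 and 60.8 CPM at week 1. At week 2 it was 56.4, 54.4 and 63.9 CPM, at week 3 56.0, 48.6, 53.3 and 56.2 and at week 4 49.9, 48.0 and 50.7. At week 1 library 3 lay in the normal-diet range, while all libraries of weeks 2, 3 and 4 lay below it. At week 5 the libraries had 51.3, 51.7 and 43.7 CPM and at week 6 49.2, 39.4 and 46.2. In all 19 of 20 diet libraries were below the lowest normal-diet library, in weeks where 3.19% (week 3) to 18.2% (week 5) of all tested genes were lower without overlap. The group means lay in the order of the weeks, from 74.3 ± 4.56 CPM (SD, n = 5) on normal diet through 60.5 ± 12.8 (n = 4), 58.3 ± 5.03 (n = 3), 53.6 ± 3.54 (n = 4), 49.5 ± 1.35 (n = 3) and 48.9 ± 4.52 (n = 3) to 44.9 ± 5.03 at week 6 (n = 3). Neighbouring weeks in this order overlapped each other in their libraries, and the slope over the 6 weeks was -0.09 ± 0.02 log2 per week (adjusted p = 0.00514).

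Acsl4 fell at week 4 (-0.59 ± 0.13, adjusted p = 0.00806), week 5 (-0.60 ± 0.13, adjusted p = 0.000708) and week 6 (-0.73 ± 0.13, adjusted p = 0.000223), and at week 3 its adjusted p was 0.0512 (-0.47 ± 0.12). The averaged log2 fold change was -0.51 ± 0.08 (adjusted p = 0.000256, 20 of 20 libraries below the normal-diet mean). This averaged call held under every alternative run, including the fit with the marker score (-0.67 ± 0.14, adjusted p = 0.0162), under which it was the only one of the 9 genes still called in that comparison. The slope lost its call when scaled by library size only (-0.04 ± 0.02, adjusted p = 0.257) and when the marker score was a term (-0.13 ± 0.04, adjusted p = 0.241). With library size only the week 5 value was -0.27 ± 0.13 and lost its call (adjusted p = 0.129), and with the marker score the values of weeks 5 and 6 were -0.89 ± 0.23 and -0.98 ± 0.21, neither called (adjusted p = 0.198 and 0.0503). Without week 4 library 1 the week 4 adjusted p was 0.0511.

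Acsl3, a synthetase of the endoplasmic reticulum and of nascent lipid droplets, was called lower at weeks 1 and 5 and below the normal-diet mean in the other weeks. It was 41.5, 62.6, 54.2, 53.4 and 64.6 CPM on normal diet. At week 1 it was 27.2, 33.5, 35.0 and 35.3 CPM, at week 2 32.3, 47.7 and 38.8 and at week 3 47.2, 44.4, 61.8 and 38.5. The week 1 libraries all lay below the lowest normal-diet library, as did those of 2.85% of all tested genes. At weeks 2 and 3 some reached the normal-diet range. At weeks 4, 5 and 6 the libraries had 32.1, 36.0 and 48.0, then 21.9, 24.0 and 40.5, then 35.1, 39.7 and 43.2 CPM. Those of week 5 all lay below the normal-diet range, where 18.2% of all tested genes did so. Acsl3 fell at week 1 (-0.75 ± 0.18, adjusted p = 0.0287), at week 5 (-0.94 ± 0.20, adjusted p = 0.000614) and averaged over the weeks (-0.56 ± 0.13, adjusted p = 0.00329, 19 of 20 libraries below the normal-diet mean). The test for any difference among the diet weeks was not called (adjusted p = 0.0773). The week 1 call was lost without any 1 of normal-diet libraries 2 and 5 or of the 4 week 1 libraries (adjusted p up to 0.125). With the marker score the averaged value was -0.35 ± 0.20 (adjusted p = 0.586).

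Acsl5, a synthetase of mitochondria and endoplasmic reticulum that is known to channel fatty acids into triglyceride, was 294, 239, 293, 261 and 288 CPM on normal diet. At week 1 it was 162, 174, 196 and 225 CPM, at week 2 139.8, 164 and 202 and at week 3 145, 186, 256 and 246. No library of weeks 1 and 2 reached the normal-diet range, and 2 of the 4 libraries of week 3 did. Of all tested genes 2.85% and 3.76% were lower without overlap at weeks 1 and 2. At weeks 4, 5 and 6 it was 187, 266 and 209, then 186, 162 and 217, then 175, 188 and 209 CPM. The libraries of weeks 5 and 6 all lay below the normal-diet range, where 18.2% and 10.6% of all tested genes did so. Its upstream window held a CCAAT box, as did that of Acsl3. It held no GC box, unlike the windows of Acsl3 and Acsl4. Acsl5 fell at week 2 (-0.70 ± 0.17, adjusted p = 0.041), week 5 (-0.55 ± 0.17, adjusted p = 0.0126) and week 6 (-0.53 ± 0.17, adjusted p = 0.0197) and in the averaged comparison (-0.51 ± 0.11, adjusted p = 0.0024, 20 of 20 libraries below the normal-diet mean). The averaged call was lost with the marker score (-0.40 ± 0.19, adjusted p = 0.471) and without normal-diet libraries 1 and 5 (-0.45 ± 0.14, adjusted p = 0.0538), the 2 with the lowest levels of other cells' markers. The week 2 call was lost without any 1 of 7 libraries, normal-diet libraries 1, 3 and 5 among them, the week 5 call without week 5 library 2, and the week 6 call without week 6 library 1 or 2. The calls of weeks 5 and 6 were also lost with library size only (-0.21 ± 0.16 and -0.23 ± 0.16), with the marker score (-0.36 ± 0.31 and -0.36 ± 0.28) and without normal-diet libraries 1 and 5 (adjusted p = 0.0575 and 0.0809).

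**Figure D4:**
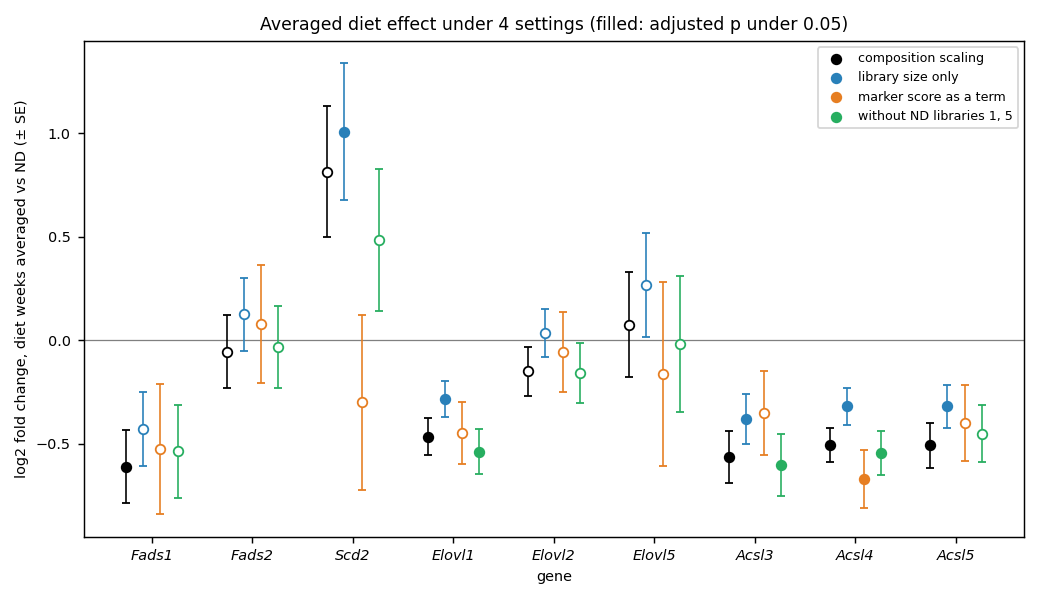
Averaged diet effect as log2 fold change (vertical axis, ± SE) of each gene (horizontal axis) under 4 settings, shown by colour; filled points have an adjusted p under 0.05. Acsl4 is filled in all 4 settings, and Scd2 runs from -0.30 with the marker score to 1.01 with library size only.

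The other genes of the pathway were counted from a list of 24, of which 19 were tested. In the averaged comparison 5 of them fell and 1 rose, with a list median of -0.22, where 8.87% of all tested genes were called lower. Those that fell were Tecr (-0.61 ± 0.09, adjusted p = 3.07e-05), the reductase that completes each elongation cycle, Hsd17b12 (-0.31 ± 0.08, adjusted p = 0.0109), the ketoacyl reductase of the same cycle, Slc27a5 (-0.35 ± 0.08, adjusted p = 0.00326), a fatty acid transporter and bile acyl-CoA synthetase of hepatocytes, Fads6 and Hacd1. The gene that rose was Hacd4 (1.35 ± 0.36, adjusted p = 0.0114), a dehydratase of elongation. Along the weeks 6 of the 19 fell and 2 rose, against 14.9% and 18.9% of all tested genes. Acsl1, the main acyl-CoA synthetase of hepatocytes, fell with a slope of -0.17 ± 0.03 log2 per week (adjusted p = 0.000201), Elovl3 with -0.30 ± 0.06 (adjusted p = 0.000488) and Hacd3 with -0.09 ± 0.02. Hacd4 rose with 0.38 ± 0.08 and Mfsd2a, a transporter of lysophospholipids carrying docosahexaenoic acid, with 0.37 ± 0.10. At week 5, 8 were lower and 2 higher (all genes, 16.3% and 19.1%), and at week 6, 8 lower and 1 higher (all genes, 10.5% and 16.3%).

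**Figure D5:**
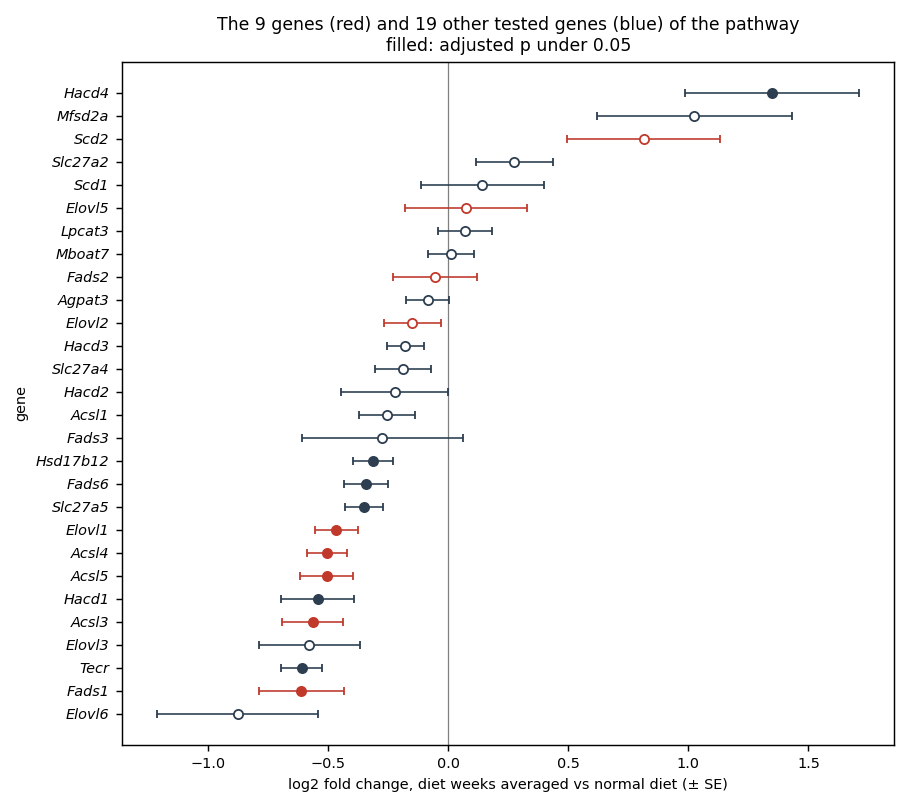
Averaged log2 fold change against normal diet (horizontal axis, ± SE) of the 9 genes (red) and the 19 other tested genes of the pathway (blue), ordered by value; filled points have an adjusted p under 0.05. Of the 11 filled points, 10 lie below 0, with Fads1 and Tecr lowest at -0.61, and Hacd4 lies above 0.

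Genes that use polyunsaturated fatty acids or turn them into signalling lipids moved in both directions. Of 25 tested from a list of 29, 2 rose and 2 fell in the averaged comparison, against 20.0% of all tested genes called. Along the weeks 8 rose and 6 fell, against 18.9% and 14.9% of all tested genes. Ptgs1, a cyclooxygenase, rose (1.20 ± 0.24 averaged, adjusted p = 0.0021), and along the weeks so did Ltc4s, the leukotriene C synthase (0.45 ± 0.09 log2 per week, adjusted p = 0.000269), and Alox5ap, the 5-lipoxygenase activating protein (0.42 ± 0.08, adjusted p = 0.000385). The Kupffer, monocyte and endothelial marker sums were higher over the same weeks, and their part in these rises and in that of Hacd4 was not tested. Cyp4a12a, a fatty acid omega-hydroxylase, fell (-0.79 ± 0.15 averaged, adjusted p = 0.000886), as did Abcd3, a peroxisomal fatty acid transporter (-0.29 ± 0.07, adjusted p = 0.00745). Among targets of the transcription factors that are known to act on desaturase and elongase genes, 7 of 15 lipogenic targets of SREBP-1 fell and 0 rose (median -0.88), 22 of 22 sterol targets of SREBP-2 fell (median -1.96), 2 of 18 PPAR-alpha targets rose (median 0.18) and 4 of 9 LXR targets rose (median 0.70) in the averaged comparison. Of all tested genes 8.87% were called lower in that comparison. Acss2, an acetyl-CoA synthetase, fell by 2.05 on the log2 scale and Insig1, a brake on SREBP processing, by 1.42. Whether any of these factors had a part in the changes of the 9 genes was not tested.

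Across the 25 libraries the genes with the most similar log2 levels were, as a description by Pearson's r, Ces1f (0.83), Gstt1 (0.83) and Gstt2 (0.81) for Fads1, and Cda (0.66), Ces1e (0.65) and Rpp21 (0.65) for Fads2. Elovl1 was nearest to Snord13 (0.81), Rpl38 (0.78) and Zmpste24 (0.77), Elovl2 to Ces2e (0.76), Nanp (0.72) and Dact2 (0.72), and Elovl5 to Scd1 (0.77), Spg21 (0.72) and Dntt (0.71). Acsl3 was nearest to Sfxn1 (0.84), Arg1 (0.83) and Stra6l (0.82), Acsl4 to Cyp2r1 (0.84), Pglyrp2 (0.82) and Rpl14 (0.81), and Acsl5 to Pdk1 (0.91) and Acss2 (0.85). For Scd2 they were Tmem51 (0.94), Hic1 (0.92) and Parvb (0.91). All of these values share the libraries, their depth and the diet groups.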

How the data were processed

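Hepatocyte RNA of 25 libraries in 7 groups was sequenced from the 3' end with the QuantSeq FWD kit, per the labels' protocols. Reads were aligned to GRCm39; the tools named are STAR 2.7.1a, cutadapt and FastQC, per the submitters' processing notes. The sources used here do not name the counting tool or its annotation. The table deposited by the authors holds raw counts per gene symbol, which were whole numbers with totals of 5281140 to 10015800 per library. Counts from 3' ends are not divided by transcript length, and levels are not compared between genes.

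Genes were filtered with filterByExpr by group and fitted with edgeR 4.0.16 in R 4.3.3 (TMM factors, robust quasi-likelihood F-test, 18 residual degrees of freedom), and p-values were adjusted by Benjamini-Hochberg over all 11869 tested genes in each of 9 comparisons: each week, the diet weeks averaged with equal weight, the slope over weeks 1 to 6 and any difference among them. CPM uses TMM-scaled library sizes, and log2 CPM a prior count of 2. The median biological coefficient of variation was 0.179. No pair of libraries within a group was a copy of another (chi-squared over degrees of freedom 5.77 to 35.1). The scripts were tested on simulated data. Every one of the 9 genes is named; up to 4 genes per pathway list with the smallest p in the averaged comparison or the slope, and the 3 most similar genes per member, were named by rule, and Hacd1, Hacd4, Mfsd2a, Scd1 and Fads3 were named after their values were seen. Single genes withheld from this text are not reported here. The genes and lists were chosen with earlier results of these data known. Alternatives changed normalization, filter, test (DESeq2 1.42.0, limma 3.58.1 voom), samples in the model, replicate block, marker score and single libraries.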

Additional observations from a re-analysis of the deposited data

Results flagged for a closer look

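In week 1, library 3 stood apart from the other libraries of its group in Scd2, at 3.29 CPM against 0.958 to 1.30 CPM in the other 3. Its marker score was 4.74, beside 4.68 in library 1, which had the lowest Scd2 level of the group. Across the 27 combinations of gene and group examined in this way, chance alone flags about 1 in 20, and this was the only one found.

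Differences between diet weeks were called for 3 of the 9 genes, in tests that called 33.9% (slope) and 23.1% (any difference) of all tested genes. The slope over weeks 1 to 6 had an adjusted p of 0.00514 for Acsl4, which fell and whose test for any difference was not called (adjusted p = 0.104), and 1.27e-05 for Scd2, which rose. The test for any difference among the diet weeks gave 0.0335 for Elovl1, with the lowest mean at week 4, and 0.000268 for Scd2, with the highest mean at week 5.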

How the results depend on the processing

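The number of the 9 genes called was 1, 2, 0, 2, 5 and 3 at weeks 1 to 6, 5 averaged, 2 for the slope and 2 for any difference among weeks. It moved by over 1.5 times as follows. With library size only it was 0 at weeks 1 and 2 and 2 at week 5. Without a filter it was 1 at week 2 and 1 for any difference; with the stricter filter it was 1 at week 3. DESeq2 gave 3 at week 1 and 1 at week 3. With only the groups compared it was 3 at week 1, 0 at week 2, 1 at week 3 and 1 for any difference; the averaged comparison uses every group and has no such fit. With the marker score it was 0 at weeks 1, 2, 5 and 6, 1 at weeks 3 and 4, 1 averaged and 0 for the slope and any difference, where 778 of all genes had an unadjusted p under 0.05. Without normal-diet libraries 1 and 5 it was 0 at week 1, 1 at week 2 and 3 averaged. Leaving out each library in turn gave 0 to 3, 0 to 2, 0 to 1, 1 to 3, 4 to 6 and 2 to 4 at weeks 1 to 6, 4 to 6 averaged, 2 to 2 for the slope and 1 to 3 for any difference. With library size only the slope count stayed at 2, with Elovl1 in place of Acsl4. The cause of these changes was not tested.

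Same-numbered libraries of different groups did not deviate together on average (mean correlation -0.0033 over 66 pairs, from -0.44 to 0.41). Differently numbered pairs had a mean of 0.0011. A mean over all genes and pairs cannot exclude pairing for single numbers or genes. The replicate block gave 0 at week 2, and averaged it left 4, without Fads1. For any difference the count stayed at 2, with Acsl3 in place of Elovl1, and the block changed no other call among the 9 genes. Signs turned in the averaged comparison for genes that were not called: Fads2 was 0.13 with library size only, 0.079 with the marker score and -0.17 to 0.10 over single left-out libraries (above 0 without normal-diet library 1); Elovl2 was 0.036 with library size only; Elovl5 was -0.16 with the marker score, -0.018 without libraries 1 and 5 of normal diet and -0.026 to 0.30 over single left-out libraries (below 0 without normal-diet library 2); Scd2 was -0.30 with the marker score. Over all genes, the averaged comparison called 2371, against 1399 with the block, 698 without those 2 libraries and 56 with the marker score as a term; week 4 called 985, against 334, 198 and 50. Weeks 5 and 6 called 4197 and 3175, against 11 and 22 with the marker score, and the slope 4020 against 2. At weeks 1 to 3 the calls were 142, 105 and 101, against 267, 198 and 217 by DESeq2. Groups of 3 to 5 libraries, and 3 to 90 counts per library for Scd2, limit what could be called.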

Other observations

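Within groups, several of the genes varied together from library to library. The correlation of deviations from the group means over the 25 libraries, given as a description, was 0.86 for Elovl5 and Acsl5. It was 0.71 for Fads1 with Acsl5, Fads1 with Elovl2, Fads2 with Elovl2 and Elovl2 with Elovl5, and 0.68 for Fads1 with Elovl5. Week 3 library 1 was the lowest of its group for 6 of the 9 genes: Fads1 (81.2 CPM against 213 to 293), Fads2, Scd2, Elovl2, Elovl5 (291 against 472 to 1053) and Acsl5. Elovl1, Acsl3 and Acsl4 were not among them. Week 4 library 1 and week 6 library 1 were likewise the lowest of their groups for 6 genes, and week 5 library 2 for 5. These counts are a description of genes that varied together, and the same share over all tested genes was not computed.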
